A study of Mus musculus with 4 samples.

Results

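NONMMUG020671.2 and NONMMUG018330.2 are 2 abundant long non-coding RNA (lncRNA) features of the mouse ovary, each made up of many annotated transcripts. They were chosen from 50821 listed features as those with 20 or more transcripts among the 10 features with the highest mean estimated count over the 4 libraries. Their abundance over all libraries and their transcript numbers therefore describe how they were picked and are not findings. This holds in part for the higher cultured counts of NONMMUG020671.2 as well, which by count was outside the top 10 in both day 3 libraries. The libraries came from whole ovaries of mice aged 3 days (2 libraries, before follicle initiation per the labels) and from ovaries removed at the same age and then cultured in vitro for 8 days (2 libraries, after follicle initiation per the labels). The labels name no genotype, strain, added agent or number of animals per library, and culture is the only treatment they give. The cultured ovaries are also older, so the effects of age and of culture cannot be told apart. Nothing in the labels says whether libraries are separate animals or pools, and p-values here measure only library-to-library spread, which may be technical. Markers of ovarian cells were not analysed here, since the files do not pair identifiers with gene symbols.

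Long non-coding RNAs are transcripts that are not translated into protein, and many of their genes are annotated with several isoforms that differ in their exons and ends. In the neonatal ovary most oocytes lie in primordial follicles, each a small oocyte surrounded by flat granulosa cells. At initiation, some of these follicles leave the resting pool, the granulosa cells become cuboidal and divide, and the oocyte grows. The NONCODE database names mouse non-coding genes with the prefix NONMMUG and their transcripts with NONMMUT. No gene symbol, function, position or sequence is attached to either identifier in the files, and 0 lines of the mouse reference tables at hand held such an identifier. The 2 features are therefore described by identifier, level and length.

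NONMMUG020671.2 is listed with 27 transcripts in all 4 tables. A run of 24 of these is numbered from NONMMUT033587.2 to NONMMUT033621.2, and another 3 run from NONMMUT105817.1 to NONMMUT105819.1. NONMMUG018330.2 is listed with 20 transcripts, numbered from NONMMUT029642.2 to NONMMUT029667.2, and thus stands exactly at the minimum of 20. By mean estimated count NONMMUG018330.2 ranked 7 with 394735 and NONMMUG020671.2 ranked 10 with 153903. The feature just outside, ranked 11, had 135557 counts and 3 transcripts. Within the top 10 no other feature had more than 2 transcripts, and the feature with 20 or more transcripts that came next ranked 50, with 7034 counts. The transcript numbers of both features have gaps, and some of the missing numbers stand under the next or previous gene identifier. Of 11 numbers skipped in the longer run of NONMMUG020671.2, 3 are listed under NONMMUG020672.2, and of 6 skipped in NONMMUG018330.2, 3 are listed under NONMMUG018329.2. If the genes overlap, which was not analysed here, reads that they share may have been split between them. The counts of both features would then be uncertain to that degree. NONMMUG020672.2 had 43.9 to 112 counts per library, and NONMMUG018329.2 had 3339 to 8280.

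The estimated counts of the tables summed to between 18215834 and 26566784 per library, and the 2 features together took 2.44% and 1.82% of them at day 3 and 3.14% and 2.26% after culture. These shares come with Wilson 95% intervals of at most ± 0.0057 percentage points for either feature in any library, which cover counting error only. Cultured library 1 stood apart from the rest, with 11211 features at FPKM 0.5 or above against 6991 to 7334 in the other libraries. FPKM is a level per kilobase of length that is also divided by library size. TMM scaling (trimmed mean of M-values, which sets the bulk of features equal between libraries) placed the scale of cultured library 1 at 0.45 (log2) against the library totals behind the FPKM values, centred on the mean of the libraries. The same measure was between -0.20 and -0.12 in the other libraries, and the part of this in the results below is given by leaving that library out.

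NONMMUG020671.2 had higher values in both cultured libraries than in both day 3 libraries on every scale used for abundance, and its test result depended on the scaling. Its FPKM was 316 and 342 in the day 3 libraries, and 1005 and 680 in cultured libraries 1 and 2. The day 3 libraries were close to each other, the cultured libraries were apart, and the groups did not overlap. The day 3 mean was FPKM 329 ± 18.5 and the cultured mean FPKM 843 ± 230.0 (SD, n = 2 each), a ratio of 2.56. Of all 8557 tested features, 37.9% likewise had both cultured libraries above both day 3 libraries in FPKM, so the lack of overlap alone is common.

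The share of NONMMUG020671.2 in the listed counts was 0.347% and 0.367% at day 3 and 1.32% and 0.822% after culture, without overlap. The cultured mean share of 1.07% ± 0.355 was 3.00 times the day 3 mean of 0.357% ± 0.0145 (SD, n = 2 each). A share of listed counts depends on the most abundant features in the same total, and 50.8% of tested features had higher shares in both cultured libraries. Measured against the listed counts without the other 9 features of the top 10, its share was 3.54% and 3.65% at day 3 and 7.51% and 5.89% after culture, 1.86 times as high. Among the tested features outside the top 10, 27.3% were higher without overlap, on a denominator that leaves out NONMMUG020671.2 as well. By count it ranked 11 in both day 3 libraries, and 8 and 9 in the cultured libraries. In FPKM, where its length enters, it ranked 28 and 26 at day 3 and 17 and 24 after culture. By count NONMMUG020671.2 was thus outside the top 10 in both day 3 libraries and met the rule through its cultured counts. Its higher values after culture are therefore partly tied to how it was picked.

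**Figure D1:**
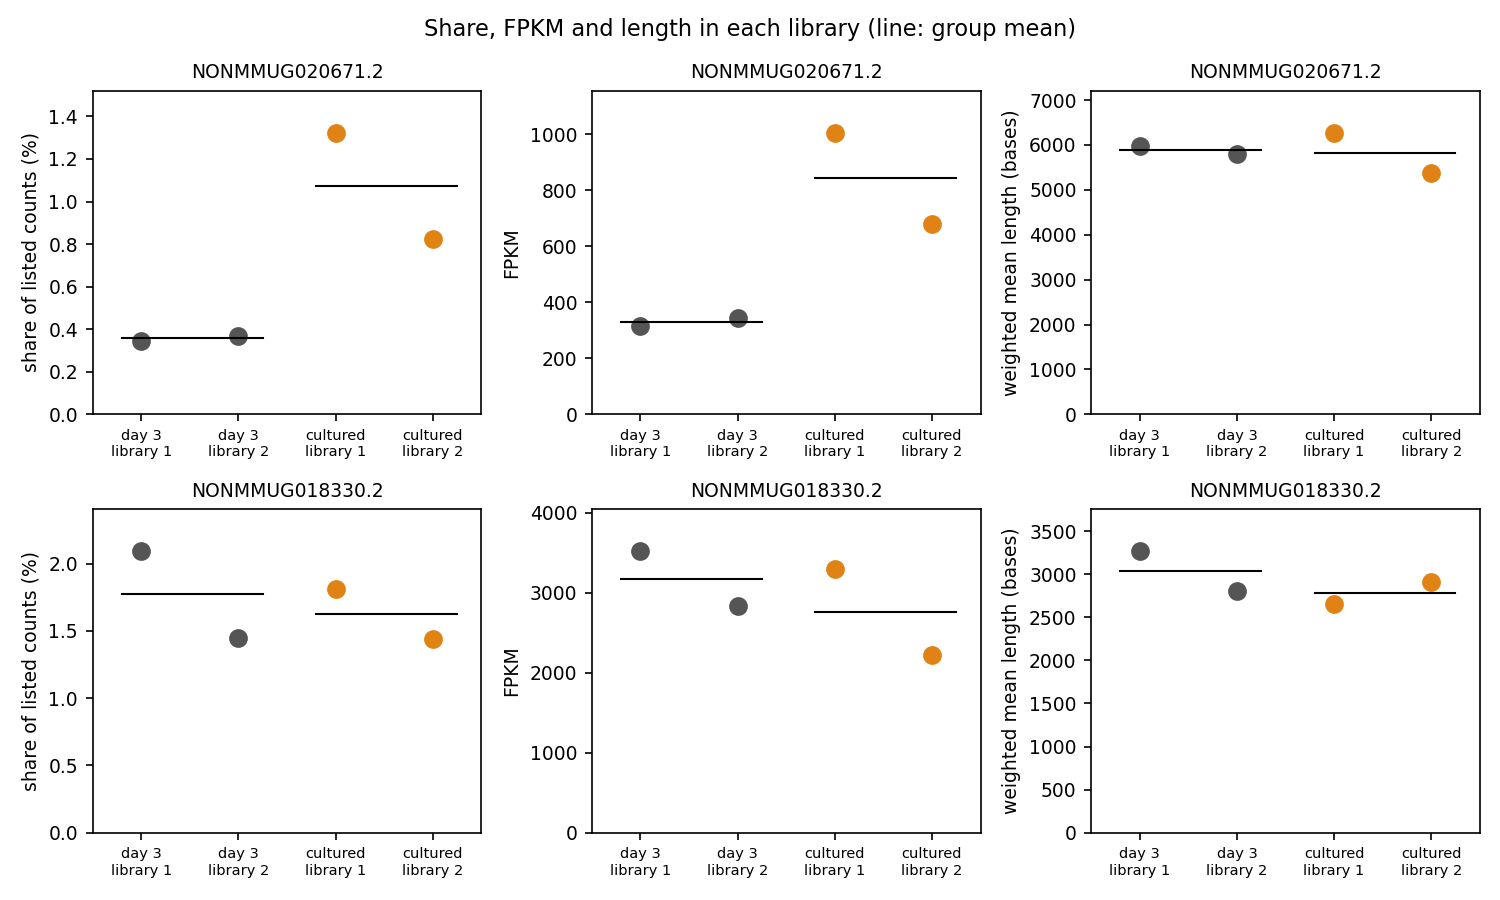
Share of listed counts (%), FPKM and weighted mean length (bases) of both features in each library, with day 3 libraries in grey, cultured libraries in orange and the group mean as a line. For NONMMUG020671.2 both cultured libraries lie above both day 3 libraries in share and FPKM, while its lengths, and all 3 measures of NONMMUG018330.2, overlap between the groups.

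NONMMUG020671.2 was then tested together with all features that reached FPKM 0.5 in at least 2 libraries. With TMM scaling its CPM (counts scaled to a common library size) was 4418 and 4412 at day 3 and 9380 and 8077 after culture. The libraries of each group lay close together on this scale, and the groups did not overlap, as was so for 30.4% of tested features in this direction. The fitted log2 fold change was 0.98 (SE 0.482), and it did not pass the test (edgeR quasi-likelihood test, Benjamini-Hochberg adjusted p = 0.205). Of all tested features 14.4% passed, 5.87% as higher after culture. When libraries were instead scaled by their totals behind FPKM, the log2 fold change was 1.36 (SE 0.298). NONMMUG020671.2 then passed as higher after culture (edgeR, adjusted p = 0.0212). On that scale 7.99% of tested features passed, 4.85% as higher. DESeq2 also placed it past the threshold, with a log2 fold change of 0.93 (SE 0.331, adjusted p = 0.0420). With DESeq2, 1084 of the 8557 tested features passed, 424 as higher. All these tests use the counts by which NONMMUG020671.2 was picked, and its cultured counts brought it in. A pass as higher therefore has no independent support.

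The change of NONMMUG020671.2 stood above that of most tested features on both scales. Over all tested features the median was a log2 fold change of 0.08 with TMM scaling and 0.45 with the library totals, a shift of the whole distribution. Among them NONMMUG020671.2 stood at percentile 87.0 and 87.3. This place is partly tied to how the feature was picked, since it met the rule through its cultured counts. Without cultured library 1 the TMM-scaled log2 fold change was 0.87 (edgeR, adjusted p = 0.170) and the one on library totals was 0.91 (adjusted p = 0.263). Without cultured library 2 the values were 1.01 (adjusted p = 0.0825) and 1.70 (adjusted p = 0.0819). On library totals without either cultured library, 0 of the 8557 tested features passed in edgeR, with 1739 (without library 1) and 3375 (without library 2) at an unadjusted p below 0.05, so the loss of the call there is not particular to NONMMUG020671.2. No other tool was run on these subsets. In bulk tissue, a change in the RNA per cell and a change in the number of cells of a type cannot be told apart.

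**Figure D2:**
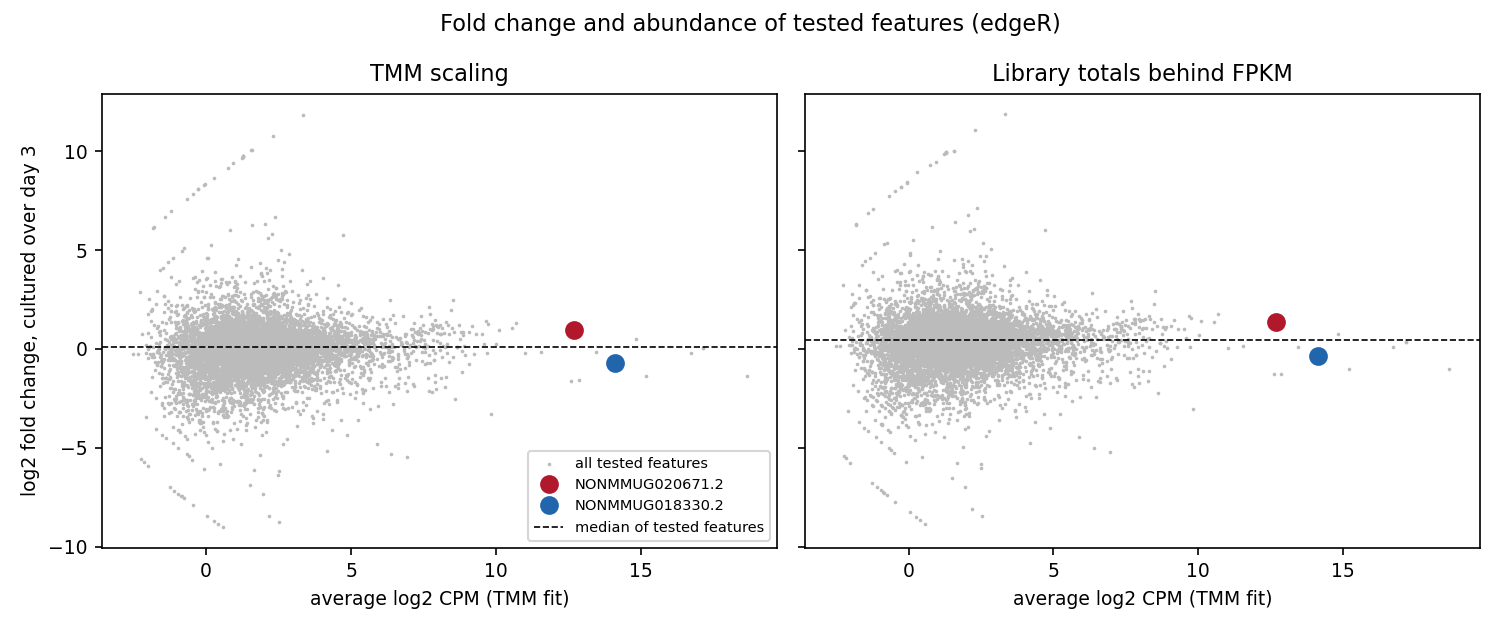
Log2 fold change of cultured over day 3 ovaries against average log2 CPM for the 8557 tested features (grey), with NONMMUG020671.2 in red, NONMMUG018330.2 in blue and the median of all tested features as a dashed line, with TMM scaling on the left and the library totals behind FPKM on the right. The median is at 0.08 on the left and 0.45 on the right, and both features move up with it.

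NONMMUG018330.2 was more abundant than NONMMUG020671.2 in every library and showed no difference between the groups that passed a test with all 4 libraries. Its FPKM was 3519 and 2834 in the day 3 libraries and 3298 and 2221 in the cultured libraries. Library 1 was the higher one in each group, and the groups overlapped. The day 3 mean was FPKM 3176 ± 484 and the cultured mean FPKM 2760 ± 761 (SD, n = 2 each), a difference smaller than either SD. Its share of the listed counts was 2.09% and 1.45% at day 3 and 1.81% and 1.44% after culture. These shares overlapped too, with means of 1.77% ± 0.454 and 1.63% ± 0.264 (SD, n = 2 each).

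On scales that discount the most abundant features, NONMMUG018330.2 was lower in both cultured libraries. With TMM scaling its CPM was 26653 and 17419 at day 3 and 12846 and 14140 after culture. The groups did not overlap on this scale, as was so for 27.4% of tested features in this direction. The log2 fold change was -0.71 (SE 0.524), which did not pass the test (edgeR, adjusted p = 0.416), at percentile 21.3 of the tested features, of which 8.50% passed as lower. With the library totals behind FPKM it was -0.35 (SE 0.271, edgeR, adjusted p = 0.417), at percentile 21.4, and 3.14% of tested features passed as lower. Without cultured library 1 the log2 fold change of NONMMUG018330.2 was -0.64 with TMM scaling and -0.59 on library totals. Against the listed counts without the other 9 features of the top 10, its share was 18.1% and 13.0% at day 3 and 10.0% and 9.88% after culture. Of tested features outside the top 10, 28.9% were lower without overlap, on a denominator that leaves out NONMMUG018330.2 as well.

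On the TMM scale the day 3 libraries differed more from each other in NONMMUG018330.2 than the cultured libraries did. Its counts were 555661 in day 3 library 1 and 381660 in day 3 library 2, with 379514 and 262107 in cultured libraries 1 and 2. Without day 3 library 1 the TMM-scaled log2 fold change was -0.37 (edgeR), and without day 3 library 2 it was -0.98. On library totals, leaving out day 3 library 2 gave a log2 fold change of -0.60 (edgeR), and leaving out day 3 library 1 gave -0.06. With a single day 3 library left, the spread within groups comes from the cultured libraries alone, so no call is drawn from these fits. The size of the difference thus moved with the day 3 library left out.

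**Figure D3:**
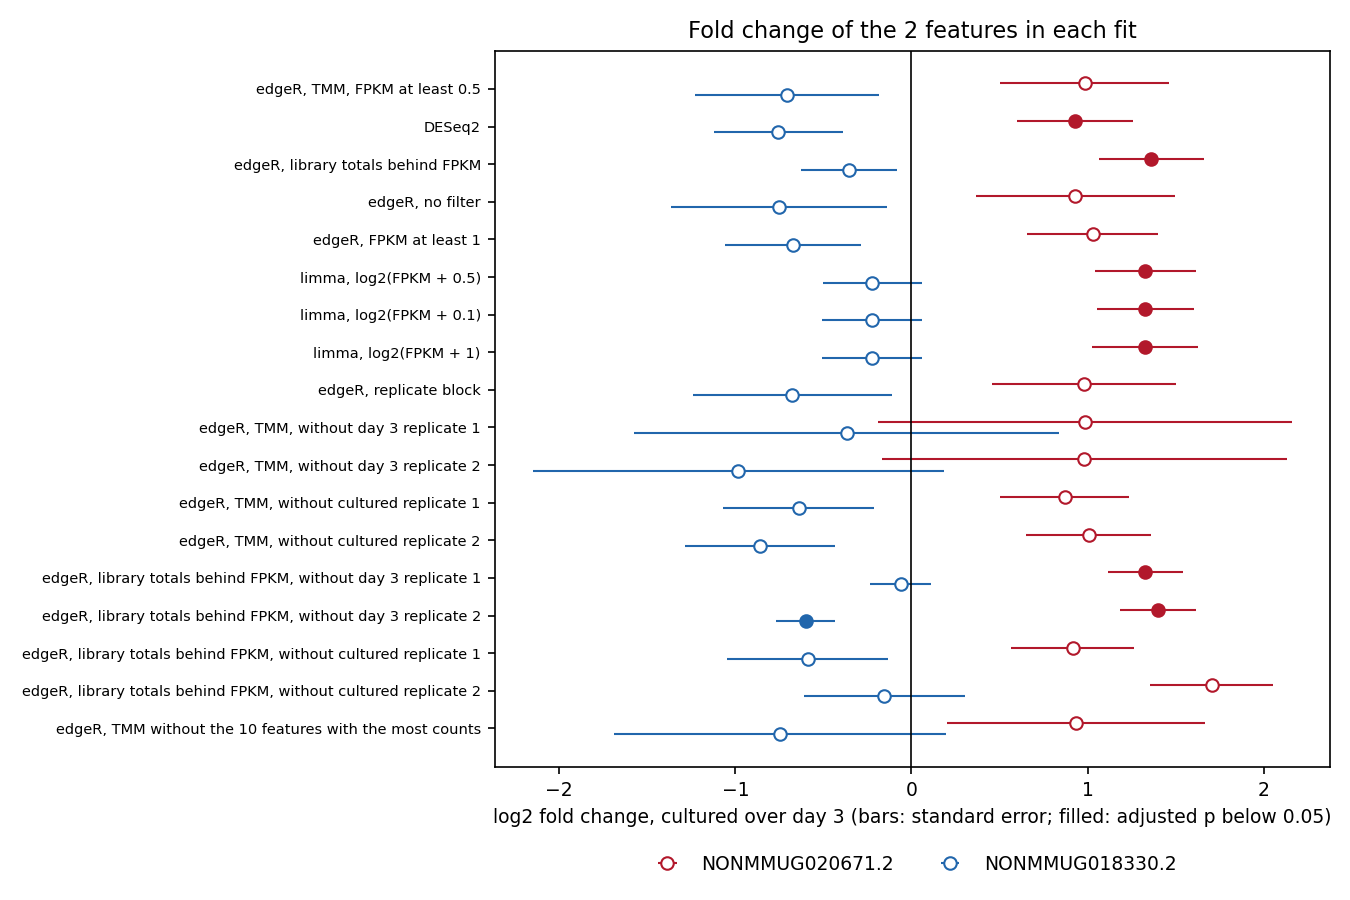
Log2 fold change of cultured over day 3 ovaries in each fit, with standard errors as bars, NONMMUG020671.2 in red and NONMMUG018330.2 in blue, and filled points where the adjusted p was below 0.05. The values of NONMMUG020671.2 lie between 0.87 and 1.70, and those of NONMMUG018330.2 between -0.98 and -0.06. Filled points of fits without a day 3 library rest on the spread of the cultured libraries alone.

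The ratio of the 2 features within a library does not depend on how libraries are scaled, and it was lower after culture. NONMMUG018330.2 had 6.03 and 3.95 times the counts of NONMMUG020671.2 in the day 3 libraries, and 1.37 and 1.75 times in the cultured libraries. The groups did not overlap, and the lowest day 3 ratio was more than double the highest cultured ratio. How often the ratio of other pairs of features separates the groups was not analysed. Single features often did not overlap in FPKM, with 37.9% of tested features higher and 18.8% lower after culture. The mean log2 ratio was 2.29 ± 0.432 in day 3 libraries and 0.63 ± 0.251 in cultured libraries (SD, n = 2 each), a difference of -1.66 that was larger than either SD. Per length, as a ratio of FPKM, NONMMUG018330.2 stood at 11.1 and 8.28 times NONMMUG020671.2 at day 3. In the cultured libraries the FPKM ratio was 3.28 and 3.27, close to equal although the FPKM of each feature differed between these libraries by a factor of 0.676 for NONMMUG020671.2 and 0.673 for NONMMUG018330.2 (library 2 over library 1). The ratio cannot say which of the 2 features changed. The pair was chosen with earlier results of these data known, so the difference has no independent support.

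**Figure D4:**
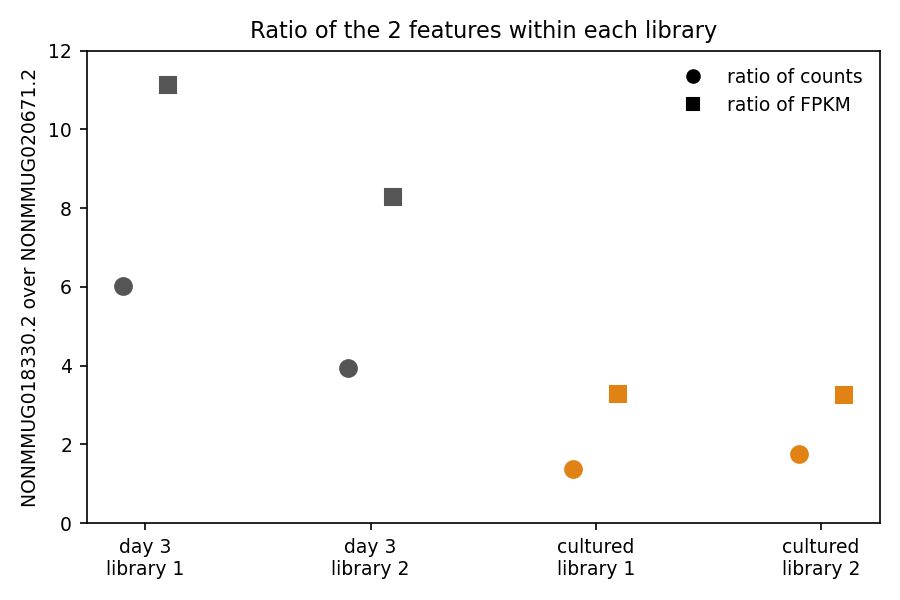
Ratio of NONMMUG018330.2 to NONMMUG020671.2 within each library, for estimated counts (circles) and FPKM (squares), with day 3 libraries in grey and cultured libraries in orange. Both ratios are lower in both cultured libraries, with count ratios of 1.37 and 1.75 against 6.03 and 3.95 at day 3.

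The deposited length was the same in every library for all features with 1 transcript and differed between libraries for most features with several, and it is read here as a mean over a feature's transcripts weighted by their estimated abundance. For NONMMUG020671.2 it was 5973 and 5805 bases at day 3 and 6273 and 5375 bases after culture. The cultured libraries lay on either side of both day 3 libraries, so that the longest and the shortest mean came from the same group. The day 3 mean was 5889 ± 118 bases and the cultured mean 5824 ± 635 bases (SD, n = 2 each), and the groups did not differ beyond their spread (exact permutation p = 1, two-sided). Its higher FPKM after culture was therefore accompanied by a longer mean transcript in cultured library 1 and by a shorter one in cultured library 2.

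For NONMMUG018330.2 the deposited length was 3265 and 2802 bases at day 3 and 2652 and 2908 bases after culture. Day 3 library 1, the library with its highest count, also had its longest mean, and the other libraries overlapped. The day 3 mean was 3034 ± 328 bases and the cultured mean 2780 ± 181 bases (SD, n = 2 each), a difference smaller than the day 3 SD (exact permutation p = 0.667, two-sided). The counts of day 3 libraries 1 and 2 differed more than their FPKM, since the longer mean of library 1 lowers its FPKM per count.

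The mean lengths of the 2 features varied more than those of most features with several transcripts. The longest mean exceeded the shortest by 16.7% for NONMMUG020671.2 and by 23.1% for NONMMUG018330.2 over the 4 libraries. Among 626 features with 2 or more transcripts, at least 100 counts in every library and a length that varied, the median was 5.85%, and the 2 features stood at percentiles 75.1 and 81.8. Among the 20 such features with 20 or more transcripts, the 2 included, the median was 16.2%. Lengths did not overlap between the groups in 46.6% of the 626 features (27.8% longer and 18.8% shorter after culture), and neither of the 2 features was among them.

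**Figure D5:**
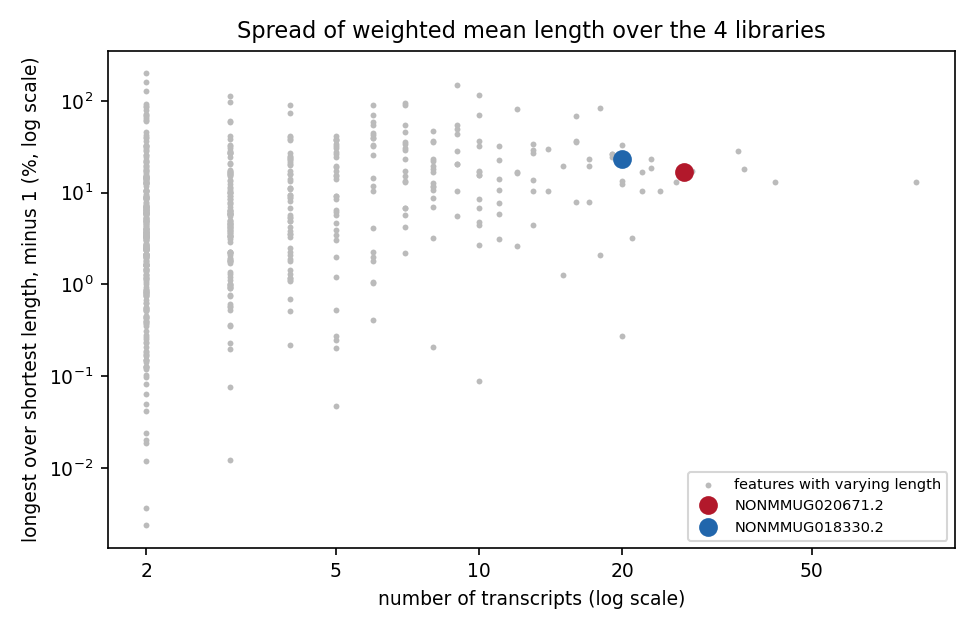
Excess of the longest over the shortest weighted mean length across the 4 libraries (%, log scale) against the number of transcripts (log scale) for 626 features with varying length (grey), with NONMMUG020671.2 in red and NONMMUG018330.2 in blue. Both lie above the median of 5.85% and within the range of features with 20 or more transcripts, whose median is 16.2%.

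Share, FPKM, length of each feature and their count ratio made a family of 7 exact two-sided permutation tests of 2 libraries against 2. The p was 0.33, the smallest this design allows, for the share and FPKM of NONMMUG020671.2 and for the ratio, and 0.667 for the share and FPKM of NONMMUG018330.2. No Benjamini-Hochberg adjusted value in the family was below 0.778 (exact permutation tests). These single tests could not have passed a threshold of 0.05.

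As a background for the 2 features, the other features with 20 or more transcripts were counted. Of the 71 listed features in that class, 27 besides the 2 were tested, of which 3 rose, 2 fell and the rest did not pass with TMM scaling (edgeR), a share of 18.5% against 14.4% of all tested features. Their median log2 fold change was -0.08, beside 0.08 for all tested features.

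Features with the most similar profile were sought among 429 other tested features whose FPKM averaged 10 or more, as the smallest distance over the 4 libraries between log2(FPKM + 0.5) values centred on their mean. Closest to NONMMUG020671.2 was NONMMUG057801.1, a single transcript of 861 bases at a distance of 0.24, with FPKM of 15.9 and 17.2 in the day 3 libraries and 48.2 and 28.1 in the cultured ones. The next was NONMMUG032011.2, of 1495 bases at a distance of 0.30, with day 3 values of FPKM 9.36 and 9.93 and cultured values of 23.9 and 20.5. The median distance from NONMMUG020671.2 was 1.13. Closest to NONMMUG018330.2 were NONMMUG026825.2, of 343 bases, and NONMMUG038093.2, of 495 bases, at distances of 0.19 and 0.21 against a median of 1.10. The day 3 libraries had FPKM 183 and 173 of NONMMUG026825.2 and the cultured ones 184 and 135. For NONMMUG038093.2 the 4 values lay between 10.0 and 13.3, with cultured library 2 the lowest. None of these 4 passed the test with TMM scaling, with edgeR adjusted p from 0.131 to 0.449. With only 4 libraries many profiles lie close by their shared group pattern and library scale, and closeness says nothing of a shared role.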

How the data were processed

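Strand-specific TruSeq libraries were made from total RNA of ovaries (4 libraries), per the labels' protocols. HISAT, Cufflinks and mm9 are named, without versions, per the submitters' processing notes. Which tool estimated the counts is not stated. The deposited tables give an expected count (the authors' estimate), an FPKM value (the authors' normalization of it to length and library total) and a length per feature, per the file headers. Between 65.3% and 67.8% of expected counts per library are whole. Unlisted features were taken as 0.

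The members and lists were chosen with earlier results of these data known. Counts were rounded and tested with edgeR 4.0.16 (R 4.3.3), TMM factors and the two-sided quasi-likelihood F test over 8557 features that reached FPKM 0.5 in at least 2 libraries, called at a Benjamini-Hochberg adjusted p below 0.05. The standard error is the log2 fold change divided by the square root of F. The library totals behind FPKM (41416709 to 49290170) are slopes of count over FPKM on length, fitted on features of 500 counts and 1000 bases or more, of which 100% lay within 2% of the line. Named features besides the 2 members were the 2 nearest profiles of each and features with adjoining identifiers, the latter chosen after their values were seen. Exact permutation tests used scipy 1.17.1. For this comparison edgeR was tested on simulated data (8557 features, dispersion 0.1, 200 changed). It recovered 3 of the 74 simulated 2-fold changes, 33 of the 62 at 4-fold and 59 of the 64 at 8-fold, with 0 false calls. The simulated libraries shared a mean profile apart from the changed features, and none was made to deviate as cultured library 1 did. These figures therefore need not hold for the data. Alternatives were DESeq2 1.42.0, limma 3.58.1 on log2(FPKM + pseudocount), other scalings, filters and denominators, a replicate block and each library left out. Leaving libraries out on the scale of library totals was added after the data were seen. No sequence is printed, since the reference tables at hand, of another build, held none of these identifiers.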

Additional observations from a re-analysis of the deposited data

How the results depend on the processing

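The log2 fold change of NONMMUG020671.2 (0.98, not past the threshold) was positive in all 17 alternatives, from 0.87 to 1.70. With all libraries in the fit it passed the threshold with DESeq2 (0.93) and with edgeR on library totals (1.36). It also passed with limma at a pseudocount of 0.5, 0.1 or 1 (each 1.33). All of these fits but DESeq2 used the library totals or FPKM, which is divided by library size, and the limma fits differ only in pseudocount. On library totals, edgeR gave 1.33 without day 3 library 1 and 1.40 without day 3 library 2. The spread within groups there comes from the cultured libraries alone, so no call is drawn from these fits. The passes with all libraries are therefore not independent, and no edgeR fit with TMM scaling passed. Of 8557 tested features, DESeq2 called 1084, and limma 823, 741 and 747 with pseudocounts of 0.5, 0.1 and 1. The cause of the differing calls was not tested. Leaving out each library gave 0.87 to 1.01 with TMM scaling and 0.91 to 1.70 on library totals, where the single library left in a group is assumed to vary as much as the other group does. For NONMMUG018330.2 (-0.71) the value was negative in all 17, from -0.98 to -0.06, and leaving out each library gave -0.98 to -0.37 with TMM scaling. On library totals the range was -0.60 to -0.06. It passed only without day 3 library 2, in a fit whose spread within groups comes from the cultured libraries alone, so that pass is not informative. The log2 difference in share of listed counts (cultured minus day 3) moved from 1.55 to 0.89 for NONMMUG020671.2 and from -0.11 to -0.63 for NONMMUG018330.2 when the other top 10 features were left out of the denominator. For NONMMUG018330.2 the share difference ran from -0.37 to 0.16 and the FPKM difference (log2) from -0.51 to 0.06 with a library left out, so their sign is not fixed. For NONMMUG020671.2 these ranges were 1.20 to 1.89 (share) and 1.05 to 1.61 (FPKM). The length difference ran from -514 to 384 bases for NONMMUG020671.2 and from -485 to -22.2 for NONMMUG018330.2, and the log2 ratio of the 2 from -1.96 to -1.35. Against 1229 called features (502 higher, 727 lower) there were 684 on library totals (415 and 269, 60.7% higher against 40.8%), 2540 with no filter and 744 at FPKM 1, and 586 to 1260 with a library left out under TMM scaling. On library totals the same omissions gave 235 called features without day 3 library 1, 489 without day 3 library 2, and 0 without either cultured library in edgeR (1739 and 3375 at an unadjusted p below 0.05), so the calls of single features lost there are not informative. Same-numbered libraries are not said to be paired and showed no shared deviation (r = -0.12 over features). The fit with a replicate block gave log2 fold changes of 0.98 and -0.68 and 1204 called features, with no change of call for either feature. Counting error was at most ± 0.0057 percentage points of the listed counts, small beside the spread between libraries.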

Other observations

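Features with identifiers adjoining those of the 2 abundant features were looked at after their values were seen. NONMMUG020673.2, 2 gene numbers after NONMMUG020671.2, is listed with 9 transcripts and went from FPKM 4.72 and 8.06 in the day 3 libraries to 32.3 and 16.6 in the cultured ones. It rose after culture by 2.48 on the log2 scale (SE 0.511, edgeR adjusted p = 0.00509). Its weighted mean length was 7357 and 7775 bases at day 3 and 18168 and 9552 bases after culture. It was longer in both cultured libraries, as were 27.8% of 626 features with varying length. By far the longest mean was in cultured library 1. Cultured library 1 was also the library with the longest mean and the highest FPKM of NONMMUG020671.2, whose length did not separate the groups. NONMMUG020672.2, which lists 3 transcript numbers skipped within the run of NONMMUG020671.2, had 46.0 and 112 counts at day 3 and 69.9 and 43.9 after culture, with a log2 fold change of -0.63 (SE 0.468) that missed the threshold (edgeR adjusted p = 0.422). NONMMUG018329.2, with 15 transcripts of which 3 have numbers within the run of NONMMUG018330.2, had FPKM 219 and 88.1 in the day 3 libraries and 97.3 and 152 in the cultured ones. Its FPKM was highest in day 3 library 1, as was that of NONMMUG018330.2, and its log2 fold change of -0.56 (SE 0.510) missed the threshold (edgeR adjusted p = 0.515). Between the cultured libraries NONMMUG018329.2 was higher in library 2 and NONMMUG018330.2 in library 1. Whether adjoining identifiers lie next to each other in the genome was not analysed here.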
